A study of Homo sapiens with 45 samples.

Results

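The untreated RNF25 GCN2 double knockout (DKO) was set against the untreated RNF25 knockout (KO), 3 libraries of each line among the 45 of the series, to see what the second edit adds where RNF25 is already edited. Both are HAP1 lines, an adherent near-haploid human line derived from the leukaemia line KBM-7, kept under the same culture conditions with no drug, and both carry the RNF25 edit. Per the labels RNF25 and GCN2 are both knocked out in the DKO, and RNF25 alone in the RNF25 KO. Libraries of the same lines treated for 4 h with 5 uM azacytidine (azaC), and untreated libraries of a GCN2 KO line and of a line named AAVS1 (a locus commonly targeted as a harmless control), each with 3 libraries, serve as further comparisons. Levels are also set beside the untreated libraries of a ZNF598 KO line and of a line with the K113R change in the ribosomal protein eS31, 3 of each, and for 2 of the 3 eS31 K113R libraries the labels disagree on the genotype name. The labels name no clone and do not say that the DKO was made from the RNF25 KO line, so the effect of the second edit and a difference between 2 lines of cells cannot be told apart. Replicates are labelled as biological and nothing more, so the p-values reflect how far these libraries differ, which may be technical.

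GCN2, the product of EIF2AK4, is 1 of the kinases that phosphorylate the translation factor eIF2 in the integrated stress response, and it is known for sensing uncharged tRNA and stalled or collided ribosomes. Phosphorylated eIF2 lowers general translation and raises translation of the transcription factor ATF4, whose targets include genes of amino acid uptake and synthesis, tRNA charging and stress regulators such as DDIT3 and CHAC1. RNF25 is a ubiquitin ligase that acts at stalled ribosomes, and the title of the series places it between azaC-induced mRNA damage and that response. CEBP and ATF factors bind composite elements in many of these targets.

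The promoters of 4 genes, none of them called between the untreated lines, are shown here from RefSeq on GRCh38.p14, each 300 bases from 250 before to 50 after the transcription start, 5′ to 3′ on the gene's strand. EIF2AK4 is shown as the gene of the second edit (chr15:39933865-39934164, plus strand), and PYCARD as a gene with a low p and 1 count over the 3 DKO libraries (chr16:31202711-31203010, minus strand), both with CpG pairs in capitals. CHAC1 (chr15:40953221-40953520, plus strand) and JDP2 (chr14:75427772-75428071, plus strand, 1 of its 3 RefSeq promoters) are shown as an ATF4 target that passed between the lines after azaC and not untreated, and as the stress response gene with an unadjusted p under 0.05 in both conditions, which passed after azaC alone. In these the capitals mark TGATGNAA, the composite CEBP and ATF element searched on both strands. The JDP2 promoter was taken as the first of the 3 that holds this element, so its presence there follows from the choice.
EIF2AK4: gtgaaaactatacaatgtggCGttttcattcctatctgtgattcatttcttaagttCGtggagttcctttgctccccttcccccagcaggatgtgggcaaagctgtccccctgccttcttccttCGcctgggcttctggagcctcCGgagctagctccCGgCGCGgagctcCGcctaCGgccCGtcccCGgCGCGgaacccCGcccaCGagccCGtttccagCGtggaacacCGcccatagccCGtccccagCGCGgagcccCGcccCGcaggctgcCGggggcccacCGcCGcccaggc
PYCARD: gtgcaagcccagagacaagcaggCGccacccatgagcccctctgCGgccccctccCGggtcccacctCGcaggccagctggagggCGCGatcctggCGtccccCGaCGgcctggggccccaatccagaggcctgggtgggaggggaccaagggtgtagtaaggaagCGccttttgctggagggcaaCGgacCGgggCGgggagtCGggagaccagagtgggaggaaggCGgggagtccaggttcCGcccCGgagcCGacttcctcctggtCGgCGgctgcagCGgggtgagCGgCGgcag
CHAC1: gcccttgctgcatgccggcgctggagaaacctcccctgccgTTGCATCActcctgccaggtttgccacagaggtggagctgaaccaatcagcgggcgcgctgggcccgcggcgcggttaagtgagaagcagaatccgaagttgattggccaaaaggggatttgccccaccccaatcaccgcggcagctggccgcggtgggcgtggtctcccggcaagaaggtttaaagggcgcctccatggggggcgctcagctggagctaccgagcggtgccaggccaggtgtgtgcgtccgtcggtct
JDP2: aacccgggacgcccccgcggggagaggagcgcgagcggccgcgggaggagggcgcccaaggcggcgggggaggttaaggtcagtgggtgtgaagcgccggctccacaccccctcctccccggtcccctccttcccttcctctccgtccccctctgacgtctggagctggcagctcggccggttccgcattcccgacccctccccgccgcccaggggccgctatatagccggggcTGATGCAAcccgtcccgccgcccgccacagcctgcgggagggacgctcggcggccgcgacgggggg
The EIF2AK4 window holds 26 CpG pairs and the PYCARD window 23, against a median of 14 over the 35116 promoters of the table, of which 30.1% and 35.8% hold at least as many. That of SPARCL1, a gene with a low p that is not shown, holds 2, and 89% hold at least as many. The element starts 209 bases before the CHAC1 start on the minus strand and 16 bases before the JDP2 start on the plus strand. It was found in 7 of the 30 stress response genes with a promoter (23.3%), in 235 of the 8583 tested genes with one (2.74%) and in 1270 of all 35116 promoters (3.62%). A match is a description of the letters and not a site.

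The 6 libraries were alike in depth and make-up, with 1485684 to 2006564 counts in DKO and 1278486 to 1646385 in RNF25 KO, within 1135498 to 2478875 over all libraries. The median count of a tested gene was 37 to 54 in the DKO libraries and 31 to 41 in the RNF25 KO libraries, and mitochondrial transcripts took 6.25 to 7.83% of counts in DKO and 7.15 to 7.85% in RNF25 KO. Libraries with the same replicate number deviated together, with correlations of 0.323, 0.528 and 0.42 across genes between the lines. MDM2, a p53 target chosen here after its values were seen, shows it at 82.1, 65.9 and 260 CPM (counts relative to the scaled library size) in DKO and 86.4, 58.1 and 269 CPM in RNF25 KO, replicates 1 to 3. Of the libraries used beside these 6, replicate 2 of azaC-treated RNF25 KO stood apart with the highest total and the lowest mitochondrial share (3.14%). The part of other cell types' markers in the results was not tested. Of 14 haematopoietic markers 11 were at 0 in all DKO libraries and 10 in all RNF25 KO libraries, PTPRC, CD34, SPI1 and GATA1 among them, with summed levels of 5.68 to 10.4 CPM in DKO and 5.56 to 9.91 CPM in RNF25 KO, led by RUNX1. Of 8 epithelial markers 5, EPCAM and CDH1 included, were at 0 in both lines, with sums of 46.1 to 65.8 CPM in DKO and 61.3 to 76.8 CPM in RNF25 KO, mostly KRT18. The sums of the 8 mesenchymal markers, led by VIM, were 401 to 510 CPM in DKO and 393 to 498 CPM in RNF25 KO, and those of the 6 neural markers, led by NES, 181 to 272 CPM in DKO and 163 to 209 CPM in RNF25 KO. All 4 endothelial markers were at 0 in both.

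EIF2AK4, the gene of the second edit (chr15:39934146-40035591, plus strand), was still measured as mRNA in DKO. It stood at 38.7, 43.3 and 36 CPM in the DKO libraries, against 46.4, 64.2 and 64.4 CPM in the RNF25 KO libraries. Every DKO library lay below every RNF25 KO library, and the means were 39.3 ± 3.71 CPM in DKO and 58.3 ± 10.3 CPM in RNF25 KO (SD, n = 3 each). The log2 change was -0.57 ± 0.23 (SE) with an adjusted p of 1 from edgeR's quasi-likelihood test, and 0.902 with replicate number as a block. After azaC the gene had 35.2, 47.5 and 22.2 CPM in DKO, against 55.3, 51 and 39.1 CPM in RNF25 KO (log2 -0.47 ± 0.23, adjusted p 0.404), and the lines overlapped. In the GCN2 KO line it stood at 24.5, 20.8 and 20.1 CPM, against 41.9, 45.1 and 44 CPM in AAVS1. That is a log2 change of -0.998 ± 0.248 with an edgeR adjusted p of 0.0277, and 0.0091 with the block. The call was lost when any 1 of the 6 libraries was left out (adjusted p 0.0551 to 0.154). The 2 changes did not differ beyond their error, at 0.43 ± 0.34 on the log2 scale (adjusted p 0.955). An edit need not lower the mRNA, so these levels do not check the DKO label. RNF25 itself had 91 counts over all 45 libraries and at most 7 in any 1, too few to test, with 11.19% of its exon length under a gene on the other strand.

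Across the genome the lines were close, and no gene passed an adjusted p of 0.05. Of 11078 genes tested, 0 were called (0%), the smallest adjusted p being 0.0587, and 325 had an unadjusted p under 0.05 (2.93%), 174 of them higher in DKO and 151 lower. That share is below the 0.05 that the threshold would give with no difference at all, so the edgeR test without the block may be too strict here. DESeq2 called 1 gene, and so did edgeR with the replicate block, RUNX1T1 in both. The median log2 change was 0.002, the quartiles were -0.18 and 0.21, and the median SE was 0.33. For 6379 genes (57.6%) the 95% interval of the change lay within 2-fold in either direction, while for the others a change of that size cannot be set aside at this depth. Libraries of the lines did not overlap, with DKO higher, for 460 genes (4.15%), and with DKO lower for 405 (3.66%). No gene had 10 or more counts in each library of one line and 1 or fewer in each of the other.

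**Figure D1:**
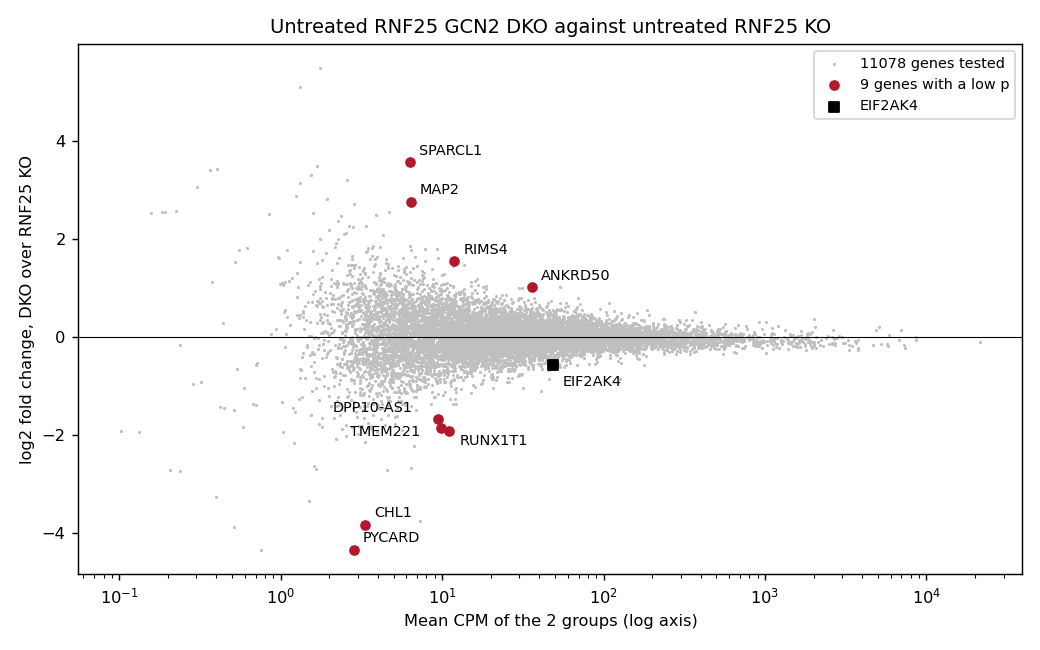
Log2 fold change of untreated DKO over untreated RNF25 KO (y axis) against the mean level of both lines in CPM (x axis, log scale), 1 point per tested gene, 3 libraries a line. 9 genes with a low unadjusted p and EIF2AK4 are named; none of the 11078 genes passed an adjusted p of 0.05, and the median change was 0.002.

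RNF25 KO was the line nearest to DKO. The root mean square difference of the group means over tested genes was 0.352 on the log2 scale to RNF25 KO, against 0.45 to ZNF598 KO, 0.487 to GCN2 KO, 0.502 to eS31 K113R and 0.514 to AAVS1, a description with no test. In the same fit 157 genes (1.42%) differed between DKO and AAVS1, 96 higher and 61 lower in DKO, and 194 (1.75%) between DKO and GCN2 KO, 91 higher and 103 lower. With the replicate block these counts were 245 and 301. Without DKO replicate 2 the comparison with AAVS1 called 99. No stretch of chromosome separated DKO from RNF25 KO by the size set here for naming one, and smaller shifts were not tested. The chromosome medians ran from -0.064 to 0.053 on the log2 scale, and none of 474 windows of 5 Mb with at least 8 tested genes had a median past 0.4 in size (-0.282 to 0.319), whereas 14 did between GCN2 KO and AAVS1.

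The 9 genes described here from those with the lowest unadjusted p were 5 that stood lower and 4 that stood higher in DKO, none of them called, and in all 9 the libraries of the lines did not overlap. Having been ranked by this comparison, their untreated values are a description, and the azaC-treated libraries of the same lines, which the ranking did not use, give a test. After azaC 79 genes differed between the lines (0.713%), 6 higher and 73 lower in DKO, among them PYCARD and MAP2 of the 9. That count rests on single libraries. It was 45, 30 and 40 without DKO replicate 1, 2 or 3 of the azaC-treated libraries, and 176 and 35 without RNF25 KO replicate 1 or 2. Keeping genes of low counts gave 173, and a fit to the compared libraries alone 29.

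RUNX1T1, a transcriptional corepressor known from the RUNX1 fusion of acute myeloid leukaemia, had the lowest p. It stood at 8.14, 2.35 and 3.78 CPM in DKO, against 14.4, 21 and 16.1 CPM in RNF25 KO (chr8:91954967-92103286, minus strand). The log2 change was -1.92 ± 0.37 with an edgeR adjusted p of 0.0587. The gene passed with the replicate block (adjusted p 0.0313), in DESeq2 (0.0158), without the eS31 K113R libraries (0.0468), with no filter on low counts (0.00784) and without DKO replicate 1 (0.00623). It was far from passing in limma-voom (0.671) and without DKO replicate 2 (1). After azaC it had 4.41, 8.38 and 4.17 CPM in DKO, against 19.9, 12 and 15.1 CPM in RNF25 KO (-1.42 ± 0.37, edgeR adjusted p 0.052), again with no overlap. Both line means lay below those of all other untreated lines, which were 41.6 to 52 CPM.

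PYCARD encodes ASC, the adaptor protein of inflammasomes (chr16:31201485-31203450, minus strand). DKO libraries held 0.679, 0 and 0 CPM, a total of 1 count, against 4, 6.79 and 5.57 CPM and 25 counts in RNF25 KO, a ratio of 0.0346 with an exact 95% interval of 0.000843 to 0.211 for counting error only. DKO was at or near 0 in each library and RNF25 KO was not. The fitted adjusted p was 0.359. After azaC the counts were 2 in DKO and 41 in RNF25 KO, a ratio of 0.0628 (0.00736 to 0.242), and the fit gave an edgeR adjusted p of 0.0205. That call held in 1 of the 6 fits that left out a library, with an adjusted p of up to 0.18. Among the other untreated lines means ran from 0.202 to 3.93 CPM, so that DKO lay within and RNF25 KO above their range. The low end was eS31 K113R, and without it the range was 1.32 to 3.93 CPM, with DKO below it. Of its exon length 59.66% lies under a gene on the other strand, and the counting is not stated to use strand.

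MAP2, a microtubule-associated protein of neurons, ran the other way, with 16.3, 8.47 and 8.83 CPM in DKO against 1.6, 3.09 and 0 CPM in RNF25 KO (log2 2.76 ± 0.67, edgeR adjusted p 0.569). The lines were again apart after azaC, at 16.9, 7.69 and 6.25 CPM in DKO and 5.16, 0 and 0.631 CPM in RNF25 KO (2.65 ± 0.67, adjusted p 0.0431), a call lost without RNF25 KO replicate 2 (0.614) and held in 2 of 6 such fits. The other untreated lines had means of 9.07 to 18.8 CPM, with RNF25 KO below them. Without eS31 K113R the range was 14.2 to 18.8 CPM, and DKO lay below it too.

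**Figure D2:**
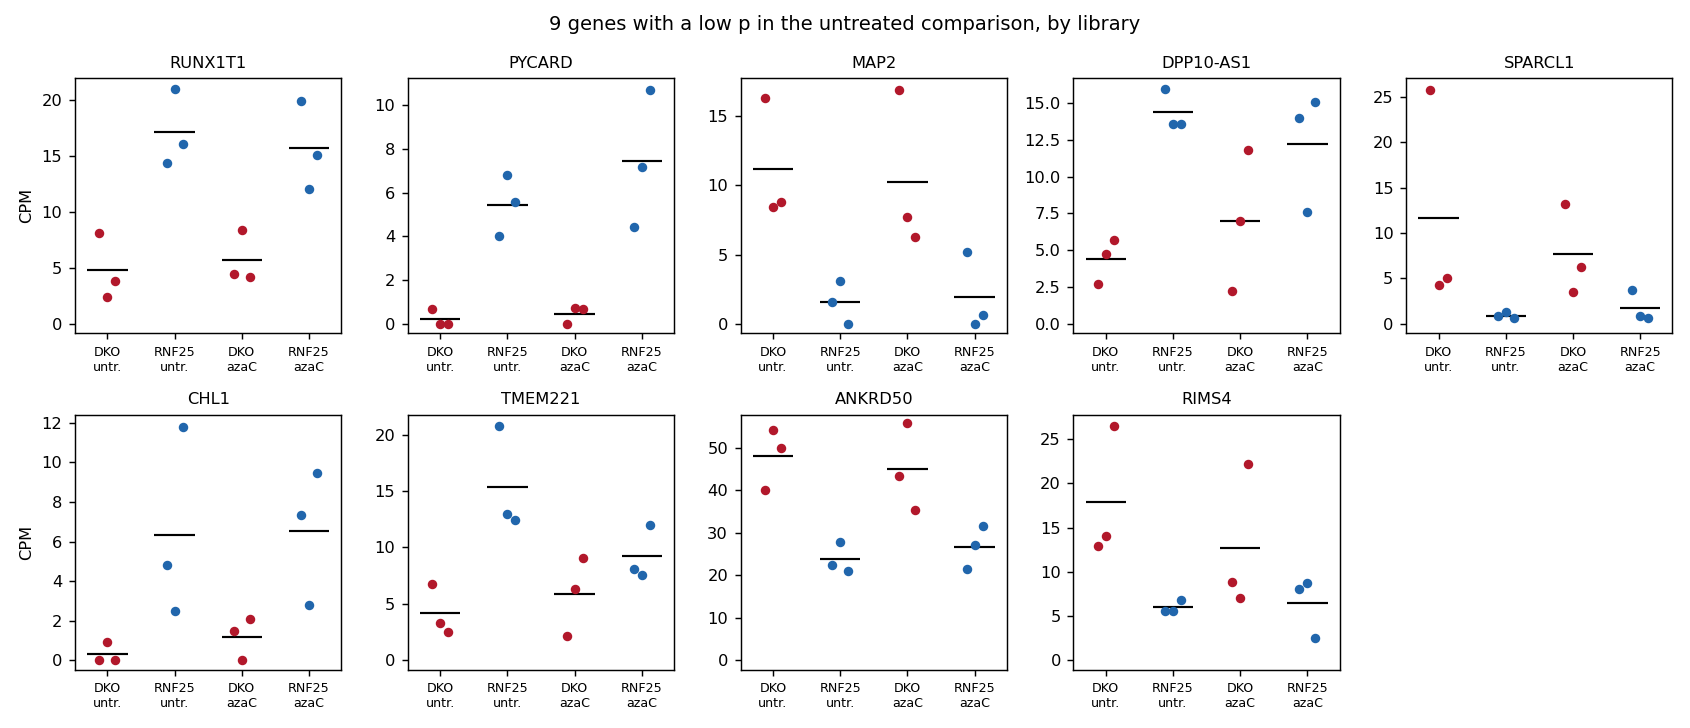
Level in each library (CPM, linear axes from 0, points) and group mean (line) of 9 genes with a low unadjusted p, untreated DKO (red) left of untreated RNF25 KO (blue), then the azaC-treated libraries of both lines in the same order, n = 3 a group. In all 9 genes the untreated points of the lines do not overlap, as PYCARD with at most 0.679 CPM in DKO and at least 4 CPM in RNF25 KO.

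Of the remaining 6 genes, 3 stood lower in DKO. The long noncoding RNA DPP10-AS1, antisense to the DPP10 gene, had 2.71, 4.71 and 5.68 CPM in DKO and 16, 13.6 and 13.6 CPM in RNF25 KO (log2 -1.68 ± 0.43, edgeR adjusted p 0.737). Like RUNX1T1 it was below the means of all other untreated lines (36.4 to 45.2 CPM) in both. CHL1, a neural cell adhesion molecule of the L1 family, had 0, 0.941 and 0 CPM in DKO and 4.8, 2.47 and 11.8 CPM in RNF25 KO, 2 counts against 29 (ratio 0.0596, exact 95% interval 0.0069 to 0.236, edgeR adjusted p 0.807). TMEM221, a membrane protein that shares 17.39% of its exon length with a gene on its own strand, had 6.79, 3.29 and 2.52 CPM in DKO and 20.8, 13 and 12.4 CPM in RNF25 KO (-1.87 ± 0.51, edgeR adjusted p 0.807).

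Higher in DKO were a secreted matrix protein, an endosomal protein and a synaptic one. SPARCL1 (hevin, secreted) had 25.8, 4.23 and 5.05 CPM in DKO and 0.8, 1.24 and 0.619 CPM in RNF25 KO (log2 3.57 ± 0.95, edgeR adjusted p 0.807), most of its DKO mean coming from replicate 1. ANKRD50, which acts in recycling of membrane proteins from endosomes, had 40, 54.1 and 49.8 CPM in DKO and 22.4, 27.8 and 21.1 CPM in RNF25 KO (1.01 ± 0.28, edgeR adjusted p 0.807). RIMS4, of the RIM family of presynaptic proteins, had 12.9, 14.1 and 26.5 CPM in DKO and 5.6, 5.56 and 6.81 CPM in RNF25 KO (1.55 ± 0.43, edgeR adjusted p 0.81). It was the third gene, with RUNX1T1 and DPP10-AS1, at which both line means lay below those of all others (33.4 to 54.7 CPM). After azaC the lines stayed apart for CHL1 and ANKRD50 and overlapped for DPP10-AS1, SPARCL1, TMEM221 and RIMS4, none of which passed.

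Set against the other 4 untreated lines, the 9 genes did not follow 1 pattern. The DKO mean lay within the range of those lines and the RNF25 KO mean outside it for 3 (PYCARD, MAP2 and CHL1), both lay within it for SPARCL1, and both outside it for the other 5. In no gene did DKO alone lie outside. Without the eS31 K113R line, both lay outside for 7 (PYCARD and MAP2 then among them) and RNF25 KO alone for 2 (CHL1 and SPARCL1), against 29.8% and 18.3% of all tested genes. With it, over all tested genes the shares were 18.2% with RNF25 KO alone outside, 16.5% with DKO alone outside, 43.6% with both within and 21.6% with both outside.

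**Figure D3:**
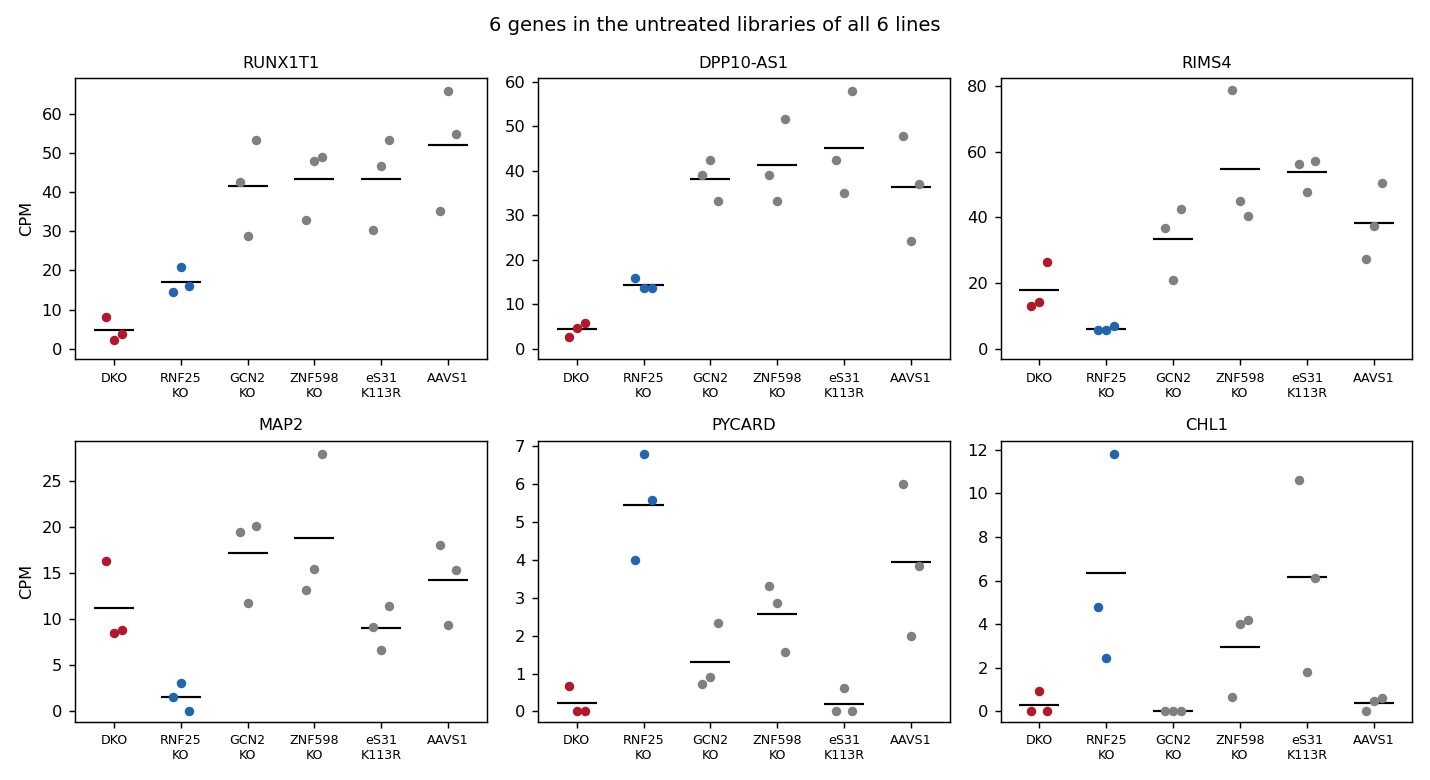
Level in each library (CPM, linear axes, points) and group mean (line, n = 3) of 6 of the 9 genes in the 6 untreated lines, DKO (red), RNF25 KO (blue) and the other lines (grey). The means of RUNX1T1, DPP10-AS1 and RIMS4 are lower in DKO and RNF25 KO than in the other 4 lines, while MAP2 is low in RNF25 KO (1.56 CPM) and at 9.07 to 18.8 CPM in the other 4.

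Averaging the line difference over untreated and azaC-treated cells, a comparison added after the untreated one called no gene, gave 49 genes (0.442%), 12 higher and 37 lower in DKO, and 39 without replicate 2 of azaC-treated RNF25 KO. DESeq2 called 82, edgeR with the replicate block 129, and edgeR with no filter on low counts 103. Of the 49, 21 had an unadjusted p under 0.05 in each condition with the same sign, 11 higher and 10 lower in DKO. A different set of 21 of the 49 was on the stress response, amino acid and tRNA synthetase lists, and the 2 sets shared 1 gene. The number differing in both conditions was 11 and 10 without RNF25 KO replicate 1 or 3 of the untreated libraries, 35 in DESeq2, 66 with the block and 44 with no filter. The mean includes the untreated libraries, so for the genes above it is no separate evidence. RUNX1T1 (log2 -1.67 ± 0.26, edgeR adjusted p 0.000143), PYCARD (-4.06 ± 0.66, 0.00027) and MAP2 (2.71 ± 0.48, 0.000863) were called in all 12 fits that left out a library. CHL1 was called in 7 of them, ANKRD50 in 8, SPARCL1 and RIMS4 in 6 each and DPP10-AS1 in 2.

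The 21 held 7 further genes that stood lower in DKO. JDP2, a bZIP factor that dimerizes with JUN and the only 1 of the 21 on the stress or amino acid lists, had 5.43, 12.2 and 10.1 CPM in untreated DKO and 23.2, 15.4 and 14.2 CPM in untreated RNF25 KO (log2 -0.88 ± 0.40), and after azaC -2.58 ± 0.40 (edgeR adjusted p 4.99e-05). CTSF, the lysosomal protease cathepsin F, had 12.9, 24 and 24.6 CPM in DKO and 37.6, 34.6 and 56.3 CPM in RNF25 KO (-1.05 ± 0.30), and after azaC -1.32 ± 0.31 (edgeR adjusted p 0.0213). The snoRNA host transcript GAS5, whose decay depends on translation, had 148, 109 and 176 CPM in DKO and 233, 201 and 209 CPM in RNF25 KO (-0.57 ± 0.19), and -0.74 ± 0.19 after azaC (edgeR adjusted p 0.0415). For these 3 the lines did not overlap in either condition. The genes were chosen by a low p in these same libraries, so that is no separate evidence. The share of all genes apart in both conditions was not taken.

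GADD45A, a stress-induced growth arrest gene, had 14.9, 14.1 and 15.1 CPM in untreated DKO and 29.6, 17.3 and 29.1 CPM in untreated RNF25 KO (-0.77 ± 0.37), and differed by -1.64 ± 0.33 after azaC (edgeR adjusted p 0.00477). TNKS1BP1, a tankyrase-binding protein, stood at 22.4, 17.4 and 24.6 CPM in DKO and 50.4, 37.1 and 25.4 CPM in RNF25 KO (-0.80 ± 0.33, and -1.48 ± 0.33 after azaC, edgeR adjusted p 0.0144). THBS2, a matrix thrombospondin, stood at 2.04, 5.18 and 13.2 CPM in DKO and 10.4, 15.4 and 26.6 CPM in RNF25 KO, with overlap (-1.37 ± 0.47, and -1.88 ± 0.48 after azaC, edgeR adjusted p 0.048). Of these, GADD45A and TNKS1BP1 lay apart in both conditions and THBS2 after azaC alone, again in the libraries by which they were chosen. MYOM1, a sarcomere protein, had 2 counts in DKO and 13 in RNF25 KO untreated (ratio 0.133, exact 95% interval 0.0146 to 0.588), and 1 in DKO and 26 in RNF25 KO after azaC (0.0495, 0.00121 to 0.302). Its call in the mean over conditions (edgeR adjusted p 0.0495) held in 2 of the 12 fits that left out a library, up to 0.131, while THBS2 was called in 11 (0.0737 without replicate 3 of untreated RNF25 KO) and the other 5 in all 12.

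Among genes higher in DKO by an unadjusted p under 0.05 in both conditions, none was called untreated. The scaffold protein IQGAP2 had 57, 76.2 and 66.2 CPM in untreated DKO and 35.2, 42.6 and 46.4 CPM in untreated RNF25 KO (log2 0.68 ± 0.24, and 0.94 ± 0.24 after azaC, edgeR adjusted p 0.0458). The next 4 were not called after azaC. PLEKHA5, a pleckstrin homology domain protein, had 136, 127 and 138 CPM in DKO and 84.8, 90.2 and 74.9 CPM in RNF25 KO (0.68 ± 0.20, and 0.51 ± 0.20 after azaC, edgeR adjusted p 0.292). PLCB1, a phospholipase C, had 23.8, 20.7 and 23.3 CPM in DKO and 11.2, 9.27 and 11.8 CPM in RNF25 KO (1.07 ± 0.37, and 1.216 ± 0.375 after azaC, edgeR adjusted p 0.15). AUTS2, a Polycomb-associated neural regulator, had 33.9, 43.8 and 39.7 CPM in DKO and 25.6, 18.5 and 24.1 CPM in RNF25 KO (0.79 ± 0.23, and 0.63 ± 0.23 after azaC, edgeR adjusted p 0.26). The receptor phosphatase PTPRD had 44.8, 54.1 and 20.8 CPM in DKO and 20, 22.9 and 17.3 CPM in RNF25 KO, with overlap (1.00 ± 0.32, and 1.03 ± 0.34 after azaC, edgeR adjusted p 0.199). In the mean over conditions IQGAP2 was called in all 12 fits that left out a library, and PLEKHA5, PLCB1, AUTS2 and PTPRD in 3 to 5, so these 4 calls rest on single libraries. For PLEKHA5 and PLCB1 one was replicate 2 of azaC-treated RNF25 KO (edgeR adjusted p 0.125 and 0.146 without it), for AUTS2 replicate 3 of azaC-treated DKO (0.156) and for PTPRD replicate 2 of untreated DKO (0.147).

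The genes of the integrated stress response, the pathway that GCN2 feeds, held no member that passed between the untreated lines. Of 33 tested members 0 passed (0% of all genes did), 2 had an unadjusted p under 0.05 (6.06%, against 2.93% of all genes), and the median log2 change was -0.16 against 0.002 over all genes, with 28 members lower and 5 higher in DKO. The mean level of the members relative to the RNF25 KO mean was, on the log2 scale, -0.177, -0.171 and -0.132 in DKO and -0.167, 0.123 and 0.044 in RNF25 KO, and the lines overlapped. Same-numbered libraries pair, and within the pairs DKO was lower each time, with differences of -0.01, -0.294 and -0.176. DKO was lower in all 3 pairs for 7 members (21.2%) and higher for 2 (6.06%), against 13.4% and 14.5% of all genes. The libraries of the lines lay apart for 6 members, 2 with DKO higher (4.15% of all genes) and 4 with DKO lower (3.66%). For 19 of the 33 members the 95% interval lay within 2-fold, as it did for 57.6% of all genes. On the scale of the untreated RNF25 KO mean, the list's mean level was -0.16 in DKO, -0.177 in GCN2 KO and -0.285 in AAVS1, all untreated. By these means RNF25 KO stood highest, and DKO was not below the line with neither edit. Between GCN2 KO and AAVS1 the list's median log2 change was 0.08. Apart from JDP2 the member with a low p was KLHL24, an adaptor of a ubiquitin ligase, higher in DKO (log2 1.37 ± 0.56, p 0.0181, edgeR adjusted p 1) and not after azaC (-0.25 ± 0.55).

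ATF4, the factor at the centre of the pathway, had 442, 343 and 457 CPM in DKO and 467, 520 and 493 CPM in RNF25 KO (log2 -0.26 ± 0.20). The pro-apoptotic factor DDIT3, with 31.6% of its exon length under a gene on the other strand, had 16.3, 13.6 and 13.9 CPM in DKO and 21.6, 22.2 and 16.1 CPM in RNF25 KO (-0.45 ± 0.34). SESN2, a leucine-sensing inhibitor of mTORC1, had 48.9, 64 and 59.9 CPM in DKO and 67.2, 70.4 and 70.6 CPM in RNF25 KO (-0.26 ± 0.18). For ATF4 and SESN2 every DKO library lay below every RNF25 KO library, while for DDIT3 the lines overlapped. The pseudokinase TRIB3 overlapped at 12.9, 18.8 and 12.6 CPM in DKO and 15.2, 21 and 24.1 CPM in RNF25 KO (-0.44 ± 0.35). CHAC1, a glutathione-degrading enzyme, had 2.71, 9.41 and 2.52 CPM in DKO and 8, 8.03 and 1.24 CPM in RNF25 KO (-0.10 ± 0.68). Within same-numbered pairs ATF4, SESN2, DDIT3 and TRIB3 were lower in DKO all 3 times, with log2 differences of -0.38, -0.66 and -0.20 for DDIT3 and -0.22, -0.15 and -0.87 for TRIB3, while those of CHAC1 were -1.22, 0.20 and 0.60. Each of the 5 had an edgeR adjusted p of 1.

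The same list separated the lines after azaC, where 15 members were called lower in DKO than in RNF25 KO and none higher (0.713% of all genes passed), with a median of -1.04. On the scale of the untreated RNF25 KO mean, the list's mean level after azaC was -0.205, 0.041 and -0.073 in DKO and 1.498, 1.397 and 1.341 in RNF25 KO. The treated DKO libraries thus lay near the untreated ones, and the treated RNF25 KO libraries above all untreated ones of both lines. CHAC1 had 1.47, 6.99 and 2.08 CPM in azaC-treated DKO against 164, 179 and 178 CPM in azaC-treated RNF25 KO (log2 -5.58 ± 0.56, edgeR adjusted p 1.41e-09). SESN2 had 60.2, 59.4 and 73.7 CPM in DKO against 467, 508 and 469 CPM in RNF25 KO (-2.90 ± 0.18, 6.35e-16). ATF4 had 438, 418 and 491 CPM in DKO against 721, 1120 and 929 CPM in RNF25 KO (-1.04 ± 0.20, 0.00146). The 15 were 14 to 16 over all fits that left out a library or changed a setting, and 14 without replicate 2 of azaC-treated RNF25 KO. For 9 of the 15 the untreated interval lay within 2-fold, as it did for 57.6% of all genes. The change of the line difference with azaC, tested itself, was called for 13 genes (0.117%), all with a lower value in DKO after azaC, SESN2 (-2.64 ± 0.25) and CHAC1 (-5.48 ± 0.92) among them. CHAC1 lost that call without replicate 2 of untreated DKO (edgeR adjusted p 0.401). Both comparisons share their lines, and the untreated libraries enter the test of the change.

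**Figure D4:**
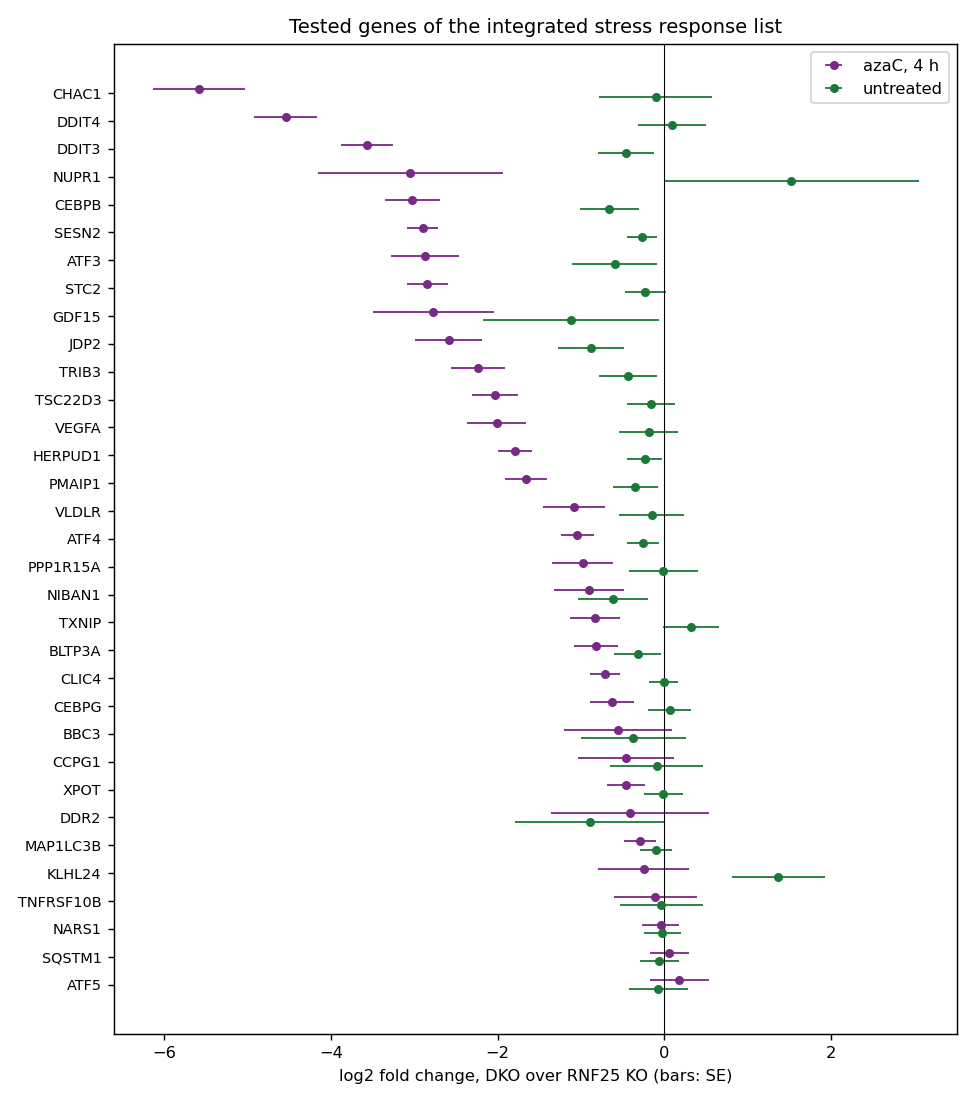
Log2 fold change of DKO over RNF25 KO (x axis, bars are SE) for the 33 tested stress response genes, after azaC (purple) and untreated (green). The untreated values lie about a median of -0.16 with none called, and 15 genes are called lower in DKO after azaC.

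Nor did the gene lists around the pathway hold a member that passed. Over 30 lists 646 of 817 genes were tested, and 16 (2.48%) had an unadjusted p under 0.05, against 2.93% of all genes. Amino acid synthesis (20 tested, median log2 change -0.09), amino acid transport (18, 0.01) and aminoacyl-tRNA synthetases (23, -0.06) held 1 gene at an unadjusted p under 0.05, the transporter SLC7A6 (0.83 ± 0.36). PHGDH, the entry enzyme of serine synthesis, had 151, 154 and 167 CPM in DKO and 158, 149 and 157 CPM in RNF25 KO. The transporter subunit SLC3A2 had 199, 207 and 233 CPM in DKO and 208, 211 and 243 CPM in RNF25 KO. For both the libraries of the lines overlapped. After azaC 8, 7 and 4 members of the 3 lists were called lower in DKO than in RNF25 KO, 19 in all (0.713% of all genes passed). The number called was 11 without replicate 2 of azaC-treated RNF25 KO, and 10 and 12 without replicate 2 or 3 of azaC-treated DKO.

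None of the other eIF2 kinases took a higher level that passed. EIF2AK1 (HRI) had 216, 208 and 278 CPM in DKO and 232, 234 and 244 CPM in RNF25 KO. EIF2AK2 (PKR) had 147, 168 and 124 CPM in DKO and 125, 119 and 97.2 CPM in RNF25 KO (log2 0.37 ± 0.22, unadjusted p 0.0981, edgeR adjusted p 1). EIF2AK3 (PERK) had 12.2, 14.1 and 5.68 CPM in DKO and 8.8, 14.8 and 9.91 CPM in RNF25 KO, none of these kinases being apart between the lines. GCN1, the ribosome-bound partner that activates GCN2, had 80.8, 77.2 and 97.8 CPM in DKO and 96.8, 97.6 and 116 CPM in RNF25 KO (-0.28 ± 0.17). For all 4 the libraries of the lines overlapped. Over the 22 kinases and regulators the median was -0.10. Among 46 collision and quality control factors the median was 0, with 23 higher and 23 lower in DKO. ZNF598, the ligase that marks collided ribosomes, had 74, 86.1 and 75.7 CPM in DKO and 57.6, 59.3 and 71.8 CPM in RNF25 KO, and ANKZF1, which releases stalled peptides, was at -0.48 ± 0.23 (p 0.0436).

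Ribosomal protein genes stood slightly lower in DKO, 69 of 81 with a negative value and a median of -0.13, none called. The direction held with both scalings tried, at 69 and 70 of 81 lower, but without DKO replicate 2 the median was -0.02 with 46 lower, so that library carried most of it. RPS27A, the gene of eS31, had 8220, 4230 and 8020 CPM in DKO and 9140, 6310 and 8380 CPM in RNF25 KO, replicate 2 being lowest in both lines. Matrix and adhesion genes had, of the 30 lists, the most members with an unadjusted p under 0.05, 4 of 32 (12.5%, against 2.93% of all genes) and all lower in DKO, none of them called, with a median of -0.26 and 28 of 32 lower. These were the laminin chain LAMB1 (log2 -0.81 ± 0.32), the thrombospondin THBS1 (-1.98 ± 0.88), the calcium-binding protein S100A11 (-0.83 ± 0.29) and the tropomyosin TPM2 (-1.42 ± 0.53), all with an edgeR adjusted p of 1. After azaC the 4 had -0.16 ± 0.32, -0.58 ± 0.91, -0.77 ± 0.29 and -0.62 ± 0.56, none called. The list median was then -0.31, with 1 of 32 called lower (0.713% of all genes passed). Relative to the untreated RNF25 KO mean, the list's mean level was -0.51, -0.29 and -0.366 in untreated DKO and 0.165, -0.118 and -0.047 in untreated RNF25 KO. After azaC it was -0.287, -0.364 and -0.392 in DKO and 0.104, -0.008 and -0.133 in RNF25 KO. Untreated AAVS1 had a mean of -0.545 and untreated GCN2 KO 0.058.

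The remaining lists held single genes. Of 45 tested HOX and developmental genes, SOX4 (log2 0.50 ± 0.17, p 0.00491) and HOXA13 (0.47 ± 0.23, p 0.0497) stood higher, and of the imprinted genes PHLDA2, a growth-restraining placental gene, lower (-1.36 ± 0.47, p 0.006). BNIP3, a mitophagy receptor induced by hypoxia, stood at 0.59 ± 0.23 untreated (p 0.0157) and at -0.03 ± 0.23 after azaC. All 4 had an edgeR adjusted p of 1. HOXC10, with 0 CPM in each DKO library and 0.8, 0 and 3.71 CPM in RNF25 KO, was at too few counts to describe. Lists for eIF2 and eIF2B subunits, ribosome biogenesis, ER stress, heat shock, immediate early genes, cholesterol, NRF2 targets, interferon and antigen presentation, autophagy, S phase, G2/M and mitochondrial transcripts held no member at an unadjusted p under 0.05, with medians from -0.14 to 0.06.

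The difference between lines with and without the GCN2 edit was also taken where RNF25 is not edited, as GCN2 KO against AAVS1, which share no library with the DKO comparison. Edit and line cannot be told apart there either. There 116 genes differed (1.05%), 78 higher and 38 lower in GCN2 KO, 206 with the replicate block, and 75 and 74 without AAVS1 replicate 2 or GCN2 KO replicate 3. Whole segments differed as well. The median log2 change was -0.323 over chromosome X, and 0.814, 0.75 and 0.951 in the windows of chromosome 8 from 10 to 25 Mb. Between DKO and RNF25 KO these medians were 0.018, and 0.06, -0.076 and -0.022. How many of the 116, or of the genes described below, lie in such segments was not counted. Of the 116, none was called between DKO and RNF25 KO, 9 had an unadjusted p under 0.05 there (7.76%, against 2.93% of all genes), 3 of them in the same direction, and 50 had the same sign and 66 the opposite one. The median size of their log2 change was 0.21 between DKO and RNF25 KO and 1.75 between GCN2 KO and AAVS1. The difference between the 2 changes, tested itself, was called for 42 genes (0.379%), 13 higher and 29 lower, and for 89 with the replicate block.

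Of 10 genes described from those with the lowest p in this difference, 4 were low in AAVS1 alone and overlapped between DKO and RNF25 KO. OCIAD2, a mitochondrial membrane protein, had 58.4, 36.7 and 46.7 CPM in DKO and 45.6, 48.2 and 63.2 CPM in RNF25 KO (log2 -0.16 ± 0.28). In GCN2 KO it had 35.4, 38.9 and 33.2 CPM, against 1.71, 0 and 0 CPM in AAVS1, 135 counts against 2 (ratio 84.8, exact 95% interval 23 to 707). Only AAVS1 was near 0, with means of 26.9 to 52.3 CPM in the other 5 lines. CTDSPL, a phosphatase, had means of 46.9 ± 6.44 CPM in DKO and 49.6 ± 4.55 CPM in RNF25 KO, and 39.6 CPM in GCN2 KO against 2.01 CPM in AAVS1. EMC10, a subunit of the ER membrane insertase, had 37.9 ± 4.98 CPM in DKO and 37 ± 5.05 CPM in RNF25 KO, and 32.6 CPM in GCN2 KO against 3.83 CPM in AAVS1. ALX4, a homeobox factor, had 12.4 ± 2.53 CPM in DKO and 13.4 ± 0.959 CPM in RNF25 KO, and 28 counts in GCN2 KO against 0 in AAVS1, at least 11.7-fold higher at a floor of 3 counts over the 3 AAVS1 libraries.

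Of the 42, 12 had an unadjusted p under 0.05 between DKO and RNF25 KO (2.93% of all genes did), a comparison that enters the difference itself. Among those described here, MET and ITM2A stood apart between DKO and RNF25 KO with the opposite sign to GCN2 KO against AAVS1. MET, the receptor of hepatocyte growth factor, had 19.7, 14.1 and 17.7 CPM in DKO and 4.8, 1.85 and 11.8 CPM in RNF25 KO (1.45 ± 0.47), and 2.89, 13.6 and 9.28 CPM in GCN2 KO against 36.8, 42.1 and 52.3 CPM in AAVS1 (-2.38 ± 0.44), a difference of 3.83 ± 0.64. ITM2A, a membrane protein, had 372, 440 and 479 CPM in DKO and 286, 297 and 323 CPM in RNF25 KO (0.51 ± 0.16), and 360, 273 and 271 CPM in GCN2 KO against 512, 728 and 535 CPM in AAVS1 (-0.98 ± 0.17). In MET and ITM2A the libraries of each pair of lines did not overlap. TMEM47, a junction protein, had 31.2, 64.5 and 29 CPM in DKO and 16.8, 27.2 and 18.6 CPM in RNF25 KO (1.00 ± 0.36), the same direction as in GCN2 KO, where 174 counts stood against 3 in AAVS1 (ratio 72.9, exact 95% interval 24.5 to 357). DMKN, TUBA4A and MGMT, a secreted epidermal protein, an alpha-tubulin and a DNA repair enzyme, had log2 changes of 0.00 ± 0.24, -0.50 ± 0.28 and 0.22 ± 0.39 between DKO and RNF25 KO, against -2.60 ± 0.34, 2.21 ± 0.35 and 4.07 ± 0.49 between GCN2 KO and AAVS1.

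**Figure D5:**
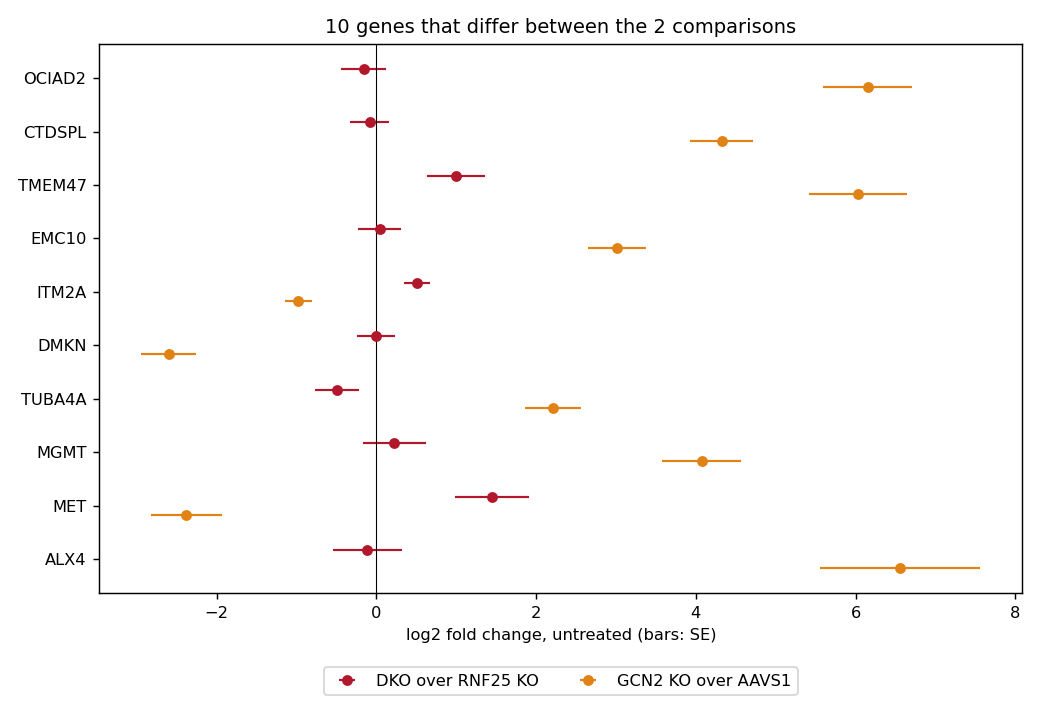
Log2 fold change (x axis, bars are SE) of DKO over RNF25 KO (red) and of GCN2 KO over AAVS1 (orange), all untreated, for 10 genes with a low p in the difference between the 2. The DKO values lie between -0.50 and 1.45, and the GCN2 KO values between -2.60 and 6.56, that of ALX4 being a fitted value against 0 counts.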

How the data were processed

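The deposited values are raw read counts per gene for 45 polyA mRNA libraries, made, per the labels' protocols, by Maxwell RSC extraction and CORALL mRNA-Seq V2 library preparation. Per the submitters' processing notes the authors used STAR 2.7.10b for alignment to GRCh38 and HTSeq 0.9.1 for the counts. Not given in the sources used here are the annotation release, the strand setting and whether molecular identifiers were used. All count columns were mapped to samples by name, with 2862 entries without a symbol (0.0286% of counts) kept as their identifiers, and 60357 of 60676 identifiers matched to symbols.

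Counts were fitted in R 4.3.3 with edgeR 4.0.16 (quasi-likelihood, TMM scaling, filterByExpr at a minimum count of 10, 15 group means, 30 residual degrees of freedom), which left 11078 genes and a common biological coefficient of variation of 22.1%. A gene was called at a two-sided p under 0.05 after Benjamini-Hochberg adjustment over all tested genes of a comparison. SE is the fold change divided by the square root of F, CPM uses TMM-scaled library sizes, and per-library log2 CPM a prior count of 2. The fit was run on counts simulated without the shared deviation of same-numbered libraries, so that run does not measure what the fit can find in these data. Intervals of count ratios cover counting error only. No 2 libraries of a group were copies, over 45 pairs.

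Members and gene lists were chosen with earlier results of these data known. Named are the edited genes, called genes, the 10 genes with the lowest p where fewer than 10 are called, up to 4 defining genes of each list of which the text gives a part, and the 12 genes with the lowest p in the difference between the GCN2 comparisons. The 21 genes that differed in both conditions, CHAC1, KLHL24 and MDM2 were added after their values were seen. A few genes that these rules name are not reported here. Same-numbered untreated libraries deviated together in every pair of lines compared (correlation 0.207 to 0.528), so a fit with replicate number as a block is given beside those results; the labels do not say what a number shares. After azaC the correlations of DKO with RNF25 KO were 0.041, 0.013 and 0.183, and the numbers were not taken to pair libraries. For 2 of the 3 untreated eS31 K113R libraries the labels disagree on the genotype name, and a fit without that group was run; the ranges of other lines without it and the differences within pairs were added after the data were seen. Promoters come from RefSeq (GRCh38.p14).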

Additional observations from a re-analysis of the deposited data

Results flagged for a closer look

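The difference of DKO from RNF25 KO and that of GCN2 KO from AAVS1 were unequal for 42 genes, by a test of the difference itself, in which the edit and the line cannot be told apart, and 10 described from those with the lowest p had the following differences on the log2 scale, DKO over RNF25 KO minus GCN2 KO over AAVS1. It was -6.31 for OCIAD2, -4.41 for CTDSPL, -5.02 for TMEM47, -2.98 for EMC10, -2.71 for TUBA4A and -3.85 for MGMT. It was 1.49 for ITM2A, 2.60 for DMKN and 3.83 for MET. For ALX4 the fitted value was -6.67, set against 0 counts in AAVS1 and therefore dependent on the prior count. Each of the 10 was called in all 12 fits that left out a library.

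The difference between DKO and RNF25 KO changed with azaC for 13 genes, again by a test of the change. The change on the log2 scale was -2.64 for SESN2, -4.63 for DDIT4, -2.62 for STC2, -3.11 for DDIT3, -2.31 for PCK2, -2.30 for SLC7A11, -5.48 for CHAC1, -1.50 for SLC38A2, -1.56 for HERPUD1, -2.36 for CEBPB, -1.87 for TSC22D3, -1.71 for XBP1 and -0.98 for SLC3A2. Of these, the untreated intervals of CHAC1, DDIT3 and CEBPB reached beyond 2-fold.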

How the results depend on the processing

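Of the recomputed values of single genes and of list medians, 642 were scored as the same. In single genes 35 values lost a call, 11 gained one, and none was scored as changed in direction. A change of sign in a gene called in neither fit was not scored where the value moved by less than its SE. Of the fits that left out a library, only that with the highest adjusted p was scored for each gene. Of the recomputed counts, 160 stayed within 1.5 times the count given and 42 did not, for which the cause was not tested. Called genes between untreated DKO and RNF25 KO were 4 with no filter on low counts, and 1 with the replicate block, with DESeq2 and without the eS31 K113R libraries (0 to 1 without single replicates). No filter on low counts gave 173 after azaC, 103 for the mean of conditions, 31 for its change with azaC, 594 at an unadjusted p, 44 in both conditions and 17 of the genes called in GCN2 KO. The replicate block gave 196, 206 for GCN2 KO, 89 for the difference of the GCN2 comparisons, 129 for the mean, 66 in both conditions, 245 and 301 for DKO against AAVS1 and GCN2 KO, and 19 of the GCN2 KO genes. Among single named genes it changed the call of RUNX1T1 alone, untreated (adjusted p 0.0313) and after azaC (0.0232). DESeq2 gave 65 for the difference, 82 for the mean and 35 in both conditions. Fits to the compared libraries alone gave 29 after azaC, 15 for GCN2 KO, 21 for the difference, 48 for DKO against AAVS1, 7 amino acid and tRNA synthetase members and 2 of the GCN2 KO genes. Without single replicates the counts ran from 30 to 176 after azaC, 74 to 142 for GCN2 KO, 31 to 40 for the difference, 33 to 71 for the mean, 9 to 15 for its change, 99 to 169 and 135 to 147 for DKO against AAVS1 and GCN2 KO, 302 to 484 at an unadjusted p, 10 to 28 in both conditions, 10 to 18 for the amino acid and tRNA synthetase members and 5 to 12 for the GCN2 KO genes. For genes with few counts, such as PYCARD and CHL1, depth limits what the libraries can show.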
